A study of Saccharomyces cerevisiae with 24 samples.

Results

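The cell wall integrity pathway of budding yeast (Saccharomyces cerevisiae) was followed through 10 genes, out of 7126 in the deposited count table, in RNA-seq of haploid cells kept in calcium chloride. The genes were taken by name from across the pathway: the sensors WSC2 and MID2, the kinases PKC1, BCK1, MKK1, MKK2 and SLT2, the transcription factor RLM1, and the output genes KDX1 and PRM5. All 10 passed the filter on low counts, and their raw counts ran from 90 to 9335 per library.

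In this pathway, sensor proteins in the plasma membrane report stress on the wall to the GTPase Rho1, which activates the protein kinase C homologue Pkc1. Pkc1 starts a relay in which Bck1 activates Mkk1 and Mkk2, and these activate the MAP kinase Slt2. Slt2 activates the transcription factor Rlm1, which raises transcription of cell wall genes, of SLT2 itself and of PTP2, whose product removes the activating phosphate from Slt2. Calcineurin, a phosphatase switched on by calcium, is a separate arm of the stress response, and Cnb1 is the regulatory subunit it needs for activity; Crz1 is the transcription factor that calcineurin activates.

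Both strains were in the BY4741 background and carried MATa his3delta1 ura3delta0 leu2delta0 lys2delta0, with CRZ1 replaced by LEU2, and each had a GFP(Y66F) reporter under the TEF promoter with a HYG marker inserted on chromosome VI. The strain called crz1 carried nothing more, and the strain called crz1 cnb1 also had CNB1 replaced by KanMx. Cells grew in synthetic medium with ammonium chloride as nitrogen source, either without added calcium (0 h) or for 12, 48 or 72 h in 200 mM CaCl2 with dilution at 12 h intervals. Each of the 8 groups had 3 libraries from triplicate time courses. The labels do not say whether these were separate cultures, so p-values measure the spread between these samples. No library with an intact CRZ1 and no library grown for 12 to 72 h without added calcium was analysed here, so a change from 0 h in CaCl2 cannot be told apart from a change with time in dilution culture.

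The 24 libraries held 21582317 to 22016465 counts each. CRZ1 had 0 to 4 counts in every library. CNB1 counts ranged from 1581 to 3043 where the gene was intact, and where it was deleted they ranged from 3 to 22. MATa markers summed to 3911 to 4934 CPM (read counts scaled to a library of standard size) at 0 h and 966.6 to 1852 CPM in CaCl2. MATalpha markers summed to 21.92 to 42.95 CPM. These sums were scaled by the total counts of each library, without TMM. All other CPM below are normalised CPM, scaled by TMM. On the first principal component (39.7% of variance) 3 libraries, each replicate 1, stood apart from the others of their groups. At 0 h they were those of crz1 (-21.1, with the others at -38.0 and -39.8) and crz1 cnb1 (-19.5, with -38.8 and -39.7). At 48 h it was that of crz1 (23.6, with -0.324 and -3.05). Replicate 1 at 0 h thus lay apart in the same direction in both strains. The 12 h libraries also spread, in the same replicate order in both strains. For replicates 1, 2 and 3 they were at 17.1, 5.24 and -5.65 in crz1 and 15.2, 5.48 and -6.04 in crz1 cnb1.

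The stretches of promoter below are shown because they carry the closest match to the Rlm1 motif upstream of the 4 members whose RNA differed between the strains at 72 h, and of PTP2. Each is read 5′ to 3′ on the coding strand from the R64 genome, and capitals mark the bases that fit the 10-letter motif.
SLT2, chrVIII:170543-170602, minus strand: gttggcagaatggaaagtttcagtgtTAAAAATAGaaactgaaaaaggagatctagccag
KDX1, chrXI:151012-151071, minus strand: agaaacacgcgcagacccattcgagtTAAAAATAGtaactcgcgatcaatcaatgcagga
PRM5, chrIX:141759-141818, minus strand: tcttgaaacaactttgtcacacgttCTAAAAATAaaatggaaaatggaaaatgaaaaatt
RLM1, chrXVI:381424-381483, minus strand: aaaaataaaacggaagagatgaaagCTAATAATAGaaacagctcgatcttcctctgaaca
PTP2, chrXV:733858-733917, plus strand: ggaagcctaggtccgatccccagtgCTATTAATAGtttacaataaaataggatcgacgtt

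RLM1 and PTP2 held the whole motif, beginning 308 and 42 bases before the start codon. SLT2, KDX1 and PRM5 held it with 1 mismatch, beginning 233, 359 and 224 bases before the start codon. In the 500 bases before the start codon, the whole motif was found in 1.82% of 6000 promoters and in 3 of the 10 members (BCK1, MKK1 and RLM1). With at most 1 mismatch it was found in 37.5% of promoters and in 6 of the 10 members. The motif reads alike on both strands, so 1 match counts for both. The element TGAAAC, bound by the mating factor Ste12, was searched on both strands and lay in 30.6% of promoters and in 4 members (SLT2, PRM5, MID2 and MKK1); it overlapped none of the printed Rlm1 matches. These matches describe the letters of the windows and say nothing about binding in these cells.

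At the level of RNA per gene length, in TPM (transcript share scaled by gene length, as deposited), the sensors WSC2 and MID2 and the kinase SLT2 were the 3 highest members in 6 of the 8 groups. At 72 h RLM1 also stood among the 3 highest in both strains. MID2 was highest in 7 of the 8 groups, from 110 ± 17.9 TPM (SD, n = 3) in crz1 cnb1 at 12 h to 237 ± 53.8 TPM in crz1 cnb1 at 0 h. WSC2 led in crz1 at 48 h with 117 ± 18.9 TPM, where its libraries overlapped those of MID2. At 0 h SLT2 came after MID2, at 97.2 ± 14.7 TPM in crz1 and 90.1 ± 12.6 TPM in crz1 cnb1. The lowest member at 0 h was BCK1, at 10.6 ± 2.37 TPM in crz1 and 10.7 ± 3.80 TPM in crz1 cnb1, and its libraries overlapped those of the next lowest, KDX1, in both strains. At 72 h the lowest member of crz1 was PRM5 (7.04 ± 2.62 TPM, overlapping KDX1 at 8.90 ± 0.809 TPM), and the lowest of crz1 cnb1 was MKK2 (15.9 ± 1.53 TPM, not overlapping BCK1 at 18.9 ± 0.640 TPM).

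**Figure D1:**
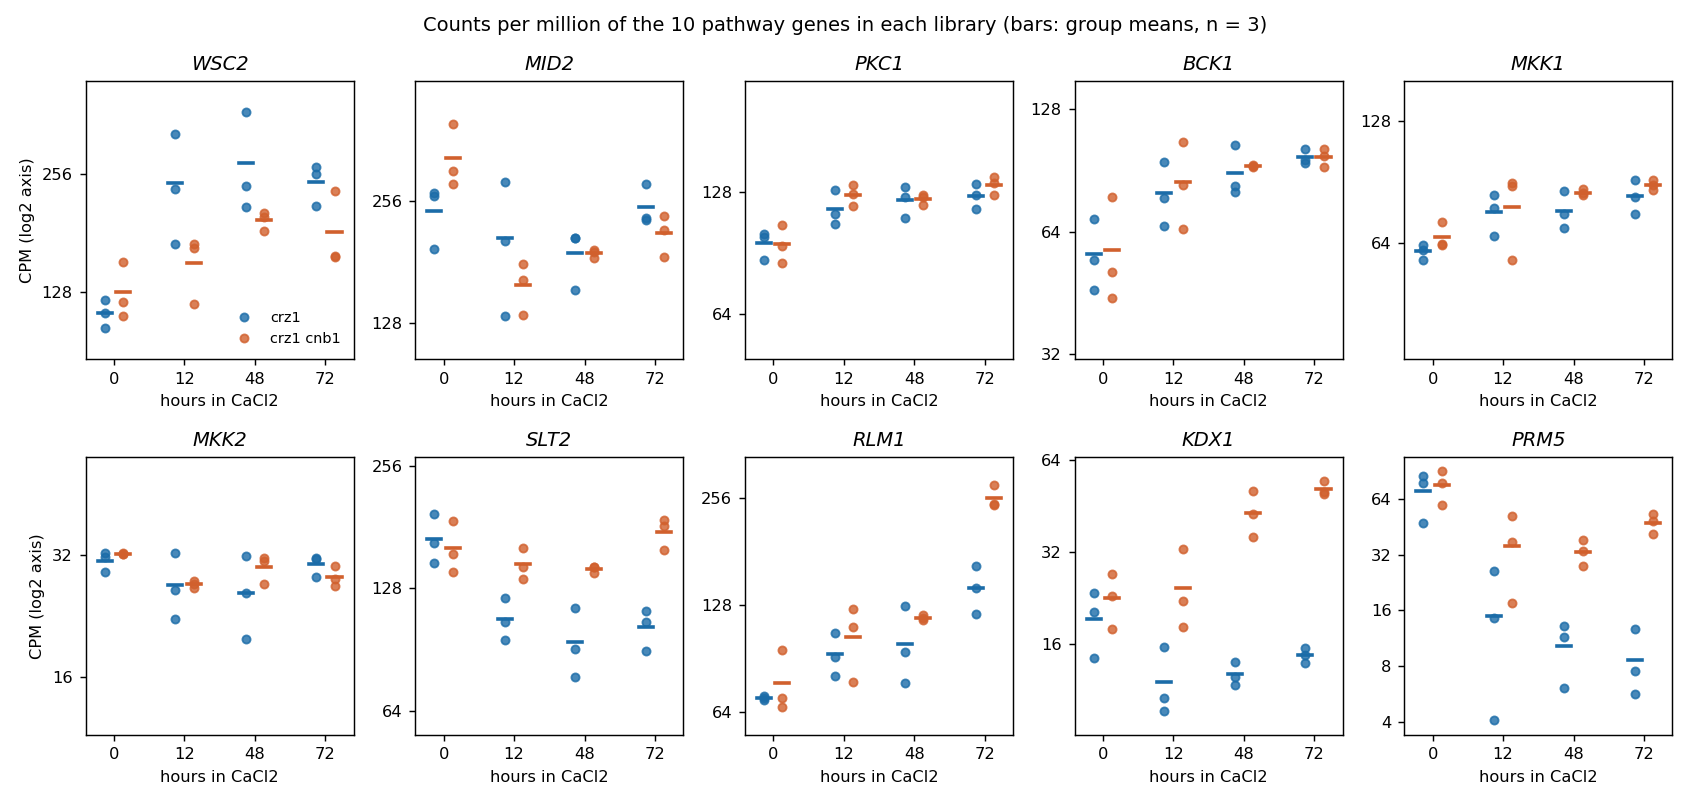
Normalised CPM (log2 axis) of each of the 10 genes against hours in CaCl2, with 1 point per library and a bar at the mean of each group (n = 3). The KDX1 libraries of crz1 cnb1 at 72 h sit between 49.6 and 54.8 CPM and those of crz1 between 13.8 and 15.5 CPM, while the libraries of PKC1, BCK1 and MKK1 of both strains overlap at 72 h.

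Whether the loss of calcineurin changed the pathway was asked by comparing crz1 cnb1 with crz1 at each time. A gene is called where its adjusted p in edgeR's quasi-likelihood test, with Benjamini-Hochberg adjustment over the 6089 genes tested, was below 0.05. At 72 h, 4 of the 10 members were called, all of them higher in crz1 cnb1: the MAP kinase SLT2, its factor RLM1, and the outputs KDX1 and PRM5. Of all genes tested 6.16% were called in that comparison, with 3.35% of all genes higher and 2.81% lower. The 6 members before SLT2 in the relay were not called at any time. At 0 h no member was called, 1 had an unadjusted p below 0.05 (MID2), and DESeq2 called 0, with 0.0164% of all genes called (1 gene, the deleted CNB1). With the replicate number as a block, which the libraries of 0 h bear out (correlation of same-numbered libraries 0.56 or more), 0 members and 1 gene were called at 0 h. At 12 h KDX1 alone was called, as higher, beside 3.73% of all genes (1.64% higher, 2.09% lower). At 48 h KDX1 and SLT2 were called, both as higher, beside 5.12% (2.07% higher, 3.05% lower).

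KDX1 encodes a kinase-like relative of Slt2 and is a target of Rlm1. At 0 h its libraries held 14.3, 20.3 and 23.4 CPM in crz1 and 17.8, 22.9 and 27.1 CPM in crz1 cnb1. At 12 h they held 9.63, 10.6 and 15.6 CPM in crz1 and 18.2, 22 and 32.7 CPM in crz1 cnb1. The strains overlapped before calcium and did not overlap at 12 h. In each of the 3 same-numbered pairs at 0 h crz1 cnb1 was the higher (log2 difference 0.23 with the block, adjusted p = 1.0). At 48 h the values were 11.7, 12.4 and 13.9 CPM against 35.7, 50.8 and 42.5 CPM. At 72 h they were 13.8, 14.7 and 15.5 CPM against 54.8, 50.3 and 49.6 CPM. All 3 libraries of crz1 cnb1 thus lay above all 3 of crz1 at each time in CaCl2. On the log2 scale the strain difference was 0.22 ± 0.21 (SE) at 0 h, 1.03 ± 0.22 at 12 h (adjusted p = 0.0127), 1.76 ± 0.22 at 48 h (adjusted p = 0.000135) and 1.81 ± 0.22 at 72 h (adjusted p = 5.95e-05), the last a 3.51-fold difference. The 12 h call was lost without replicate 2 of crz1 (adjusted p = 0.074) or replicate 3 of crz1 cnb1 (adjusted p = 0.0944) at that time, and in a fit of only the 6 libraries compared (adjusted p = 0.148). In bulk cultures such as these, RNA per cell and the share of cells that carry the RNA cannot be told apart.

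PRM5 encodes a membrane protein known to be raised both by mating pheromone and by cell wall stress. At 0 h its libraries held 47.5, 84.6 and 77.6 CPM in crz1 and 59.0, 89.6 and 77.6 CPM in crz1 cnb1. At 12 h they held 4.11, 14.5 and 26.1 CPM in crz1 and 17.5, 37.5 and 51.3 CPM in crz1 cnb1. The strains overlapped at both of these times, and replicates of each strain spread widely at 12 h. At 48 h the values were 6.15, 11.5 and 13.2 CPM against 27.6, 38.4 and 33.3 CPM. At 72 h they were 12.7, 5.70 and 7.55 CPM against 52.8, 48.2 and 41.5 CPM. The strains did not overlap at 48 and 72 h. The strain difference on the log2 scale was 0.11 ± 0.47 at 0 h, 1.26 ± 0.49 at 12 h (adjusted p = 0.161), 1.69 ± 0.49 at 48 h (adjusted p = 0.0553) and 2.46 ± 0.51 at 72 h (adjusted p = 0.00683), the last a 5.5-fold difference. The 48 h difference passed the threshold by DESeq2 (adjusted p = 0.0174) and by limma on log2(TPM + 1) (adjusted p = 0.0077).

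SLT2 encodes the MAP kinase at the end of the relay. At 0 h it was at 148.2, 194.8 and 165.5 CPM in crz1 and at 140.2, 187.5 and 155.5 CPM in crz1 cnb1. At 12 h it was at 95.8, 105.8 and 121.4 CPM in crz1 and at 135.1, 144.5 and 160.6 CPM in crz1 cnb1. At this time the strains no longer overlapped. At 48 h the values were 114.4, 90.9 and 77.4 CPM against 144.8, 139.9 and 144.9 CPM. At 72 h they were 112.5, 105.8 and 89.9 CPM against 188.3, 182.5 and 159.5 CPM. The crz1 cnb1 libraries were the higher ones at all 3 times in CaCl2. The strain difference on the log2 scale was -0.07 ± 0.14 at 0 h, 0.45 ± 0.15 at 12 h (adjusted p = 0.0843), 0.60 ± 0.15 at 48 h (adjusted p = 0.0212) and 0.78 ± 0.15 at 72 h (adjusted p = 0.0027). The 48 h call was lost in a fit of only the libraries compared (adjusted p = 0.201) and without any 1 library of that time other than replicate 1 of crz1, with adjusted p from 0.0516 without replicate 2 of crz1 cnb1 to 0.166 without replicate 3 of crz1; the 72 h call held in each.

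RLM1 encodes the transcription factor that Slt2 activates. At 0 h it stood at 69.3, 71.2 and 70.2 CPM in crz1 and at 95.8, 70.3 and 66.4 CPM in crz1 cnb1. At 12 h its values were 80.8, 91.8 and 107.3 CPM against 110.9, 125.0 and 77.7 CPM, and at 48 h they were 127.3, 94.6 and 77.2 CPM against 116.5, 117.6 and 120.2 CPM. The strains overlapped at these 3 times. At 72 h RLM1 was at 120.6, 143.5 and 165.5 CPM in crz1 and at 279.2, 245.3 and 246.9 CPM in crz1 cnb1, without overlap. The log2 strain difference was 0.14 ± 0.18 at 0 h, 0.16 ± 0.18 at 12 h, 0.24 ± 0.18 at 48 h and 0.84 ± 0.18 at 72 h (adjusted p = 0.00704), the last a 1.80-fold difference. The 72 h call was lost without replicate 1 of crz1 at 72 h (adjusted p = 0.0577).

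**Figure D2:**
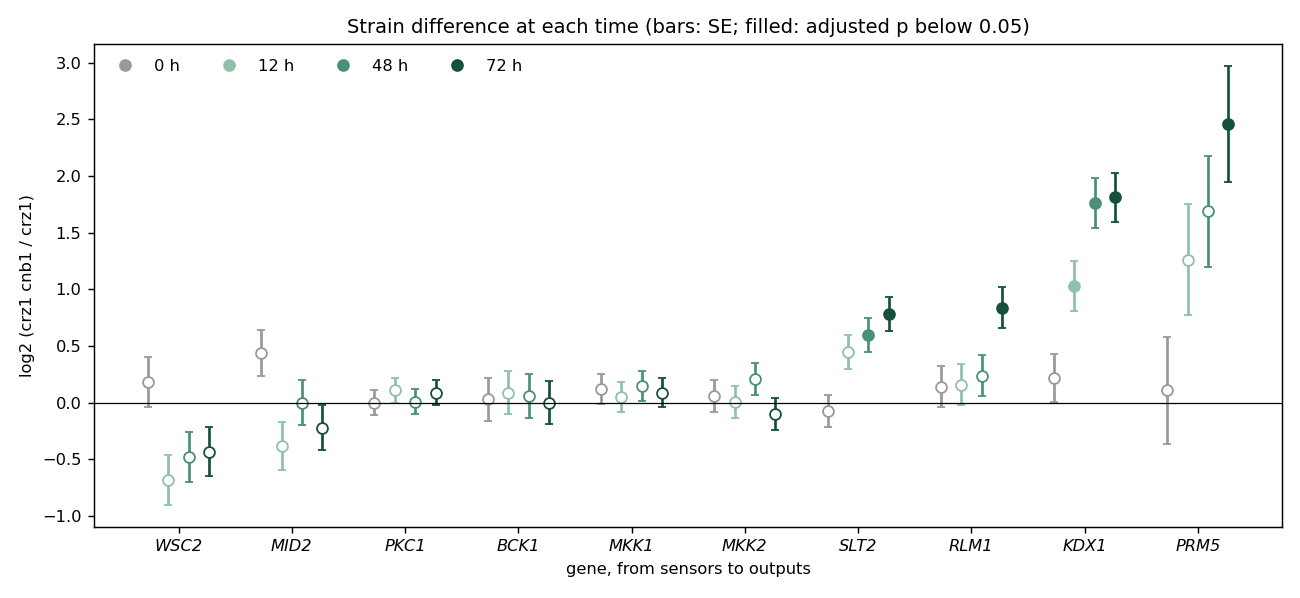
Log2 ratio of crz1 cnb1 to crz1 for each gene at 0, 12, 48 and 72 h, with bars of 1 SE; filled points have an adjusted p below 0.05. KDX1, PRM5 and SLT2 climb from near 0 at 0 h to 1.81, 2.46 and 0.78 at 72 h, while PKC1, BCK1, MKK1 and MKK2 stay between -0.10 and 0.21 at every time.

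The kinases before SLT2 showed no called strain difference. At 72 h PKC1, the protein kinase C homologue, was at 116.0, 133.7 and 125.9 CPM in crz1 and at 139.3, 134.7 and 125.5 CPM in crz1 cnb1, and the 95% interval of the log2 difference ran from -0.13 to 0.31. The interval ran from -0.40 to 0.40 for BCK1, the MAP kinase kinase kinase, from -0.19 to 0.37 for MKK1, and from -0.39 to 0.18 for MKK2, the paired MAP kinase kinases. The libraries of the strains overlapped for each of these 4 genes at 12, 48 and 72 h.

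The sensor WSC2, a wall mechanosensor, was lower in crz1 cnb1 at each time in CaCl2 without passing the threshold. At 12 h it was at 170.2, 234.4 and 324.7 CPM in crz1 and at 166.0, 169.7 and 119.5 CPM in crz1 cnb1, a log2 difference of -0.68 ± 0.22 (adjusted p = 0.0855). At 48 h the difference was -0.48 ± 0.22 (adjusted p = 0.192) and at 72 h it was -0.43 ± 0.22 (adjusted p = 0.275). DESeq2 called the 12 h difference (adjusted p = 0.0415). MID2, a second wall sensor, differed by 0.44 ± 0.20 at 0 h (adjusted p = 1.0), by -0.38 ± 0.21 at 12 h, by 0.00 ± 0.20 at 48 h and by -0.22 ± 0.20 at 72 h.

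The counts of called genes between the strains moved with the libraries left out. Without the 3 that stood apart, 603 genes in place of 227 were called between the strains at 12 h, and 3 members were (KDX1, WSC2 and SLT2). At 48 h 2116 genes in place of 312 were called and 5 members were (KDX1, SLT2, RLM1, WSC2 and MKK2). At 72 h 728 genes in place of 375 were called with 4 members. Leaving out replicate 1 of crz1 at 12 h gave 475 called genes at that time and called WSC2 and MID2 as lower, while leaving out any of the others but replicate 1 of crz1 cnb1 gave 34 to 79. The 48 h gain came with replicate 1 of crz1 at 48 h alone, whose removal gave 1886 called genes and 4 called members. Leaving out any other library of 48 h gave 81 to 160 genes and 1 member, KDX1. At 72 h leaving out replicate 1 or 3 of crz1 or replicate 1 or 2 of crz1 cnb1 gave 141 to 178 called genes and 3 or 4 members. Leaving out replicate 2 of crz1 at 72 h gave 488 genes and 4 members. With the replicate number as a block, which the libraries of 12 h bear out (correlation of same-numbered libraries 0.169 or more), 457 genes were called at 12 h. On the log2(TPM + 1) scale the median of all genes shifted by 0.26 between the strains at 48 h and by 0.12 at 72 h. The calls then split 473 higher to 47 lower at 48 h, in place of 126 to 186, and 236 to 77 at 72 h, in place of 204 to 171, while the members called remained higher: 3 at 48 h and 4 at 72 h.

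Whether the response to time in CaCl2 itself differed between the strains was asked with a joint test of the 3 strain-by-time terms. KDX1 was the 1 member called (adjusted p = 0.0321), among 22 genes or 0.361% of all tested. Its change from 0 h was larger in crz1 cnb1 than in crz1 by 0.80 ± 0.30 on the log2 scale at 12 h, by 1.54 ± 0.30 at 48 h and by 1.59 ± 0.30 at 72 h. For PRM5 the corresponding values were 1.15 ± 0.67, 1.58 ± 0.68 and 2.35 ± 0.69 (joint adjusted p = 0.33), for SLT2 they were 0.52 ± 0.20, 0.68 ± 0.20 and 0.86 ± 0.21 (joint adjusted p = 0.188), and for RLM1 they were 0.02 ± 0.26, 0.10 ± 0.26 and 0.70 ± 0.26 (joint adjusted p = 0.405). The KDX1 call was lost in 14 of the 24 fits that left out 1 library, with adjusted p between 0.0136 and 0.123 over all 24. It held under every other setting tried, with adjusted p from 0.00021 by DESeq2 to 0.0364 with RLE size factors. DESeq2 also called SLT2 (adjusted p = 0.0471), and SLT2 passed without the 3 libraries that stood apart (adjusted p = 0.0267).

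Within each strain the groups in CaCl2 were compared with the 0 h group, which the 3 comparisons of a strain share. In crz1, 5 members were called at 12 h, 2 of them higher and 3 lower, beside 32.0% of all genes (17.6% higher, 14.4% lower). At 48 h 7 were called, 4 higher and 3 lower, beside 33.5% (19.8% higher, 13.7% lower), and at 72 h 7 were called, 5 higher and 2 lower, beside 42.3% (22.6% higher, 19.8% lower). In crz1 cnb1, 3 members were called at 12 h, 2 higher and 1 lower, beside 20.5% of all genes (12.9% higher, 7.67% lower). At 48 h 5 were called, 4 higher and 1 lower, beside 23.9% (14.3% higher, 9.54% lower), and at 72 h 6 were called, 5 higher and 1 lower, beside 35.7% (20.1% higher, 15.7% lower). Of the 10 members, the median log2 change at 72 h was 0.21 in crz1 and 0.45 in crz1 cnb1, beside -0.03 and 0.01 over all genes tested. On the log2(TPM + 1) scale the median of all genes shifted by -0.16 in crz1 at 12 h and by -0.25 at 48 h. In crz1 at 12 h that scale gave 541 genes higher and 1312 lower, against 1072 and 878 on the count scale, and called 1 member higher and 3 lower. At 48 h it gave 391 higher and 1814 lower, against 1206 and 835, and called 1 member higher and 5 lower. In crz1 at 72 h it gave 890 and 1348 against 1375 and 1203, and in crz1 cnb1 it gave 346 and 580 against 784 and 467 at 12 h. The members called in crz1 cnb1 were then 0 higher and 2 lower at 12 h, and 2 higher and 2 lower at 48 h.

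**Figure D3:**
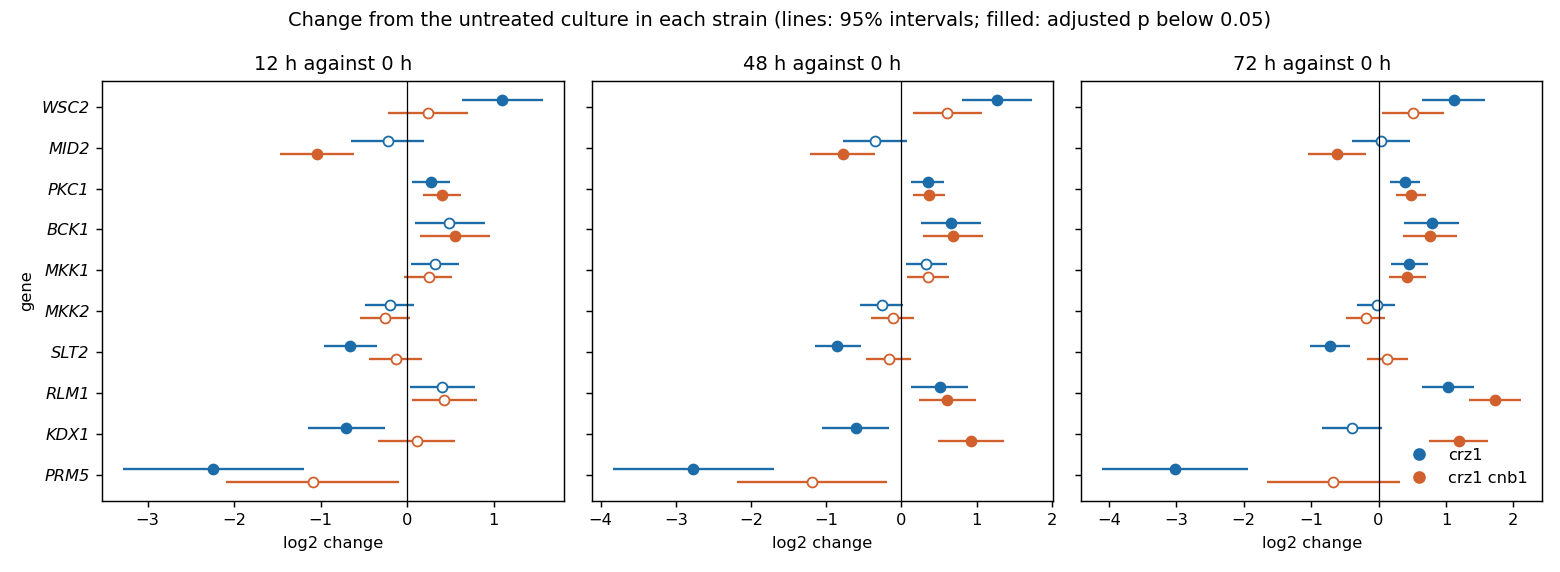
Log2 change from 0 h to 12, 48 and 72 h in CaCl2 for each gene in crz1 (blue) and crz1 cnb1 (orange), with 95% intervals; filled points have an adjusted p below 0.05. PRM5 falls in crz1 by 2.24 to 3.02, WSC2 rises there by 1.10 to 1.27, and KDX1 rises in crz1 cnb1 at 48 and 72 h.

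The output gene PRM5 fell in crz1 by 2.24 ± 0.50 on the log2 scale at 12 h (adjusted p = 0.00215), by 2.77 ± 0.51 at 48 h (adjusted p = 0.000514) and by 3.02 ± 0.51 at 72 h (adjusted p = 0.000171), the last an 8.09-fold lower level. In crz1 cnb1 its values were -1.09 ± 0.47, -1.19 ± 0.47 and -0.67 ± 0.47, with adjusted p of 0.112, 0.0776 and 0.279, so that none passed. The PRM5 changes in crz1 cnb1 did pass on the log2(TPM + 1) scale at 12 and 48 h (-1.23 and -1.17, adjusted p = 0.0405 and 0.0459), and in fits of only the libraries compared at 48 and 72 h (adjusted p = 0.0022 and 0.0085). KDX1 fell in crz1 by 0.70 ± 0.22 at 12 h (adjusted p = 0.0175) and by 0.61 ± 0.22 at 48 h (adjusted p = 0.0347), and stood at -0.40 ± 0.21 at 72 h (adjusted p = 0.141). The 72 h change passed as lower without the 3 libraries apart (-0.58, adjusted p = 0.0259) and without replicate 1 of 0 h (-0.57, adjusted p = 0.0424). In crz1 cnb1 KDX1 stood at 0.11 ± 0.21 at 12 h and rose by 0.93 ± 0.21 at 48 h (adjusted p = 0.00311) and by 1.19 ± 0.21 at 72 h (adjusted p = 0.000216). The 12 h and 48 h calls of KDX1 in crz1 were each lost in 4 of the 6 fits that left out 1 of the libraries compared (at 12 h without replicate 2 or 3 of 0 h or replicate 1 or 2 of 12 h, adjusted p up to 0.104; at 48 h without replicate 2 or 3 of 0 h or replicate 1 or 2 of 48 h, adjusted p up to 0.171) and in a fit of only those libraries (adjusted p = 0.0806 and 0.0888).

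SLT2 fell in crz1 by 0.66 ± 0.15 at 12 h (adjusted p = 0.00162), by 0.85 ± 0.15 at 48 h (adjusted p = 0.000182) and by 0.72 ± 0.15 at 72 h (adjusted p = 0.00051). In crz1 cnb1 its changes were -0.13, -0.17 and 0.13, each ± 0.14, and none passed. RLM1 rose in both strains at 48 h, by 0.51 ± 0.18 in crz1 (adjusted p = 0.0357) and 0.61 ± 0.18 in crz1 cnb1 (adjusted p = 0.0188), and at 72 h, by 1.03 ± 0.18 (adjusted p = 0.000154) and 1.73 ± 0.19 (adjusted p = 8.35e-07). The 48 h call of RLM1 in crz1 was lost without any 1 of the libraries compared other than replicate 3 of 48 h, with a change of 0.29 (adjusted p = 0.193) without replicate 1 of 48 h. It was also lost without the 3 libraries apart (adjusted p = 0.35), in a fit of only the libraries compared (0.18) and on the log2(TPM + 1) scale (0.14, adjusted p = 0.661). In crz1 cnb1 the 48 h call was lost without replicate 2 or 3 of 0 h (adjusted p = 0.0816 and 0.10) or replicate 3 of 48 h (adjusted p = 0.0532), and on the log2(TPM + 1) scale (adjusted p = 0.0993).

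Among the upstream kinases, PKC1 rose in all 6 comparisons with 0 h, by 0.28 to 0.48 on the log2 scale, each ± 0.11. On the log2(TPM + 1) scale those calls were lost in crz1 at 12, 48 and 72 h, where PKC1 changed by 0.12, 0.02 and 0.30, and in crz1 cnb1 at 12 and 48 h. In fits of only the libraries compared they were lost in crz1 at 12 and 48 h (adjusted p = 0.10 and 0.219). They were also lost in crz1 at 12 h without replicate 2 or 3 of 0 h or 1 or 2 of 12 h (adjusted p up to 0.197) and at 48 h without replicate 3 of 0 h or 2 of 48 h (up to 0.077). In crz1 cnb1 they were lost at 12 h without replicate 3 of 0 h (0.0774) and at 48 h without replicate 2 or 3 of 0 h or 1 of 48 h (up to 0.0988). BCK1 rose at 48 and 72 h in both strains, by 0.66 and 0.79 in crz1 and by 0.69 and 0.76 in crz1 cnb1, each ± 0.19, and at 12 h in crz1 cnb1 by 0.56 ± 0.19 (adjusted p = 0.0464). The BCK1 call at 12 h was lost without replicate 2 or 3 of 0 h or 1 or 2 of 12 h (adjusted p up to 0.24). Those at 48 h were lost without replicate 3 of 0 h in crz1 (0.0746) and without replicate 2 or 3 of 0 h in crz1 cnb1 (up to 0.0916). In fits of only the libraries compared BCK1 lost its calls in crz1 cnb1 at 12 h (adjusted p = 0.162) and in crz1 at 48 h (0.0839). On the log2(TPM + 1) scale BCK1 was called at 72 h alone, with 0.335 as its adjusted p at 48 h in crz1. At 12 h in crz1 BCK1 had a log2 change of 0.49 ± 0.19 (adjusted p = 0.0577) and MKK1 one of 0.32 ± 0.13 (adjusted p = 0.0685). Both passed with the replicate number as a block (adjusted p = 0.00936 and 0.0466). The correlation of same-numbered libraries there ran from 0.114 to 0.682, and not every library correlated best with its own number. MKK1 rose at 72 h, by 0.45 ± 0.13 in crz1 (adjusted p = 0.00937) and 0.42 ± 0.13 in crz1 cnb1 (adjusted p = 0.0171). These calls were lost in crz1 without replicate 3 of 72 h (adjusted p = 0.0634) and in crz1 cnb1 without replicate 2 or 3 of 0 h or 2 of 72 h (up to 0.0688), and in both on the log2(TPM + 1) scale (0.169 and 0.0786). MKK2, which shares its step with MKK1, was called in none of the 6, with changes from -0.26 to -0.03. In crz1 at 48 h it passed as lower on the log2(TPM + 1) scale (-0.57, adjusted p = 0.0438) and without the 3 libraries apart (-0.49, adjusted p = 0.0111). It was at 31.6, 32.4 and 29.0 CPM in crz1 at 0 h and at 28.3, 31.5 and 31.2 CPM at 72 h.

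Of the sensors, WSC2 was called in crz1 and MID2 in crz1 cnb1. WSC2 rose in crz1 from 103.5, 113.4 and 122.1 CPM at 0 h to 256.6, 212.0 and 266.7 CPM at 72 h, and its log2 change was 1.10 ± 0.22 at 12 h (adjusted p = 0.000723), 1.27 ± 0.22 at 48 h (adjusted p = 0.000226) and 1.12 ± 0.22 at 72 h (adjusted p = 0.000481). In crz1 cnb1 WSC2 changed by 0.24, 0.61 and 0.51, each ± 0.22, with adjusted p of 0.461, 0.0507 and 0.0781. The 48 h and 72 h changes passed without the 3 libraries that stood apart (0.71 and 0.65, adjusted p = 0.0312 and 0.0341) and on the log2(TPM + 1) scale (0.0291 and 0.0256). MID2 fell in crz1 cnb1 from 395.0, 303.8 and 281.8 CPM at 0 h to 163.2, 179.2 and 134.1 CPM at 12 h, a log2 change of -1.04 ± 0.21 (adjusted p = 0.00135). It fell by 0.78 ± 0.21 at 48 h (adjusted p = 0.00893) and by 0.62 ± 0.21 at 72 h (adjusted p = 0.0232). In crz1 MID2 changed by -0.22, -0.35 and 0.03, each ± 0.20, and none passed. The 48 h change passed on the log2(TPM + 1) scale (-0.67, adjusted p = 0.0193) and without the 3 libraries apart (-0.62, adjusted p = 0.0386). The 72 h call of MID2 was lost without replicate 1 of 0 h (-0.46, adjusted p = 0.108), the library with 395.0 CPM, and without replicate 1 or 2 of 72 h (adjusted p = 0.0547 and 0.0981), and on the log2(TPM + 1) scale (adjusted p = 0.0672). Neither sensor passed the joint test of the strain difference in change (adjusted p = 0.477 for WSC2 and 0.453 for MID2).

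From 12 h to 72 h in CaCl2, no member was called in crz1, beside 1.89% of all genes (1.13% higher, 0.755% lower); RLM1 alone had an unadjusted p below 0.05 (log2 change 0.62 ± 0.18, adjusted p = 0.085), and DESeq2 called it (adjusted p = 0.0417). In crz1 cnb1, RLM1 rose by 1.3 ± 0.18 (adjusted p = 0.001) and KDX1 by 1.09 ± 0.21 (adjusted p = 0.00847), 2 of the 10 members beside 4.43% of all genes (2.1% higher, 2.33% lower), and both calls held without each of the 6 libraries. On the log2(TPM + 1) scale the median of all genes shifted by 0.15 in crz1 cnb1, and the calls split 154 higher to 59 lower in place of 128 to 142, and 53 to 22 in place of 69 to 46 in crz1.

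Other genes of the pathway were read from lists by role. Of 4 phosphatases that act on Slt2, 1 was higher in crz1 cnb1 at 48 h and at 72 h, beside 2.07% and 3.35% of all genes. This was the Rlm1 target PTP2. PTP2 was at 48.1, 66.2 and 56.9 CPM in crz1 and at 54.4, 64.3 and 51.8 CPM in crz1 cnb1 at 0 h. At 72 h it was at 45.7, 47.2 and 48.0 CPM in crz1 and at 96.6, 98 and 91.8 CPM in crz1 cnb1. The strains thus overlapped before calcium and were apart by 1.02 ± 0.14 on the log2 scale at 72 h (adjusted p = 0.000184), with 0.77 ± 0.14 at 48 h (adjusted p = 0.00253; 0.125 in a fit of only the libraries compared). PTP2 passed the joint test (adjusted p = 0.0472), a call lost in 20 of the 24 fits without 1 library and with RLE size factors (adjusted p = 0.0556). PTP3, another of these phosphatases, rose from 0 h in 5 of the 6 comparisons, by 0.94 to 1.34, and differed between the strains at 72 h by -0.03 ± 0.22 (adjusted p = 0.96). MSG5, a dual-specificity phosphatase, rose by 0.47 ± 0.12 in crz1 and 0.50 ± 0.12 in crz1 cnb1 at 72 h.

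**Figure D4:**
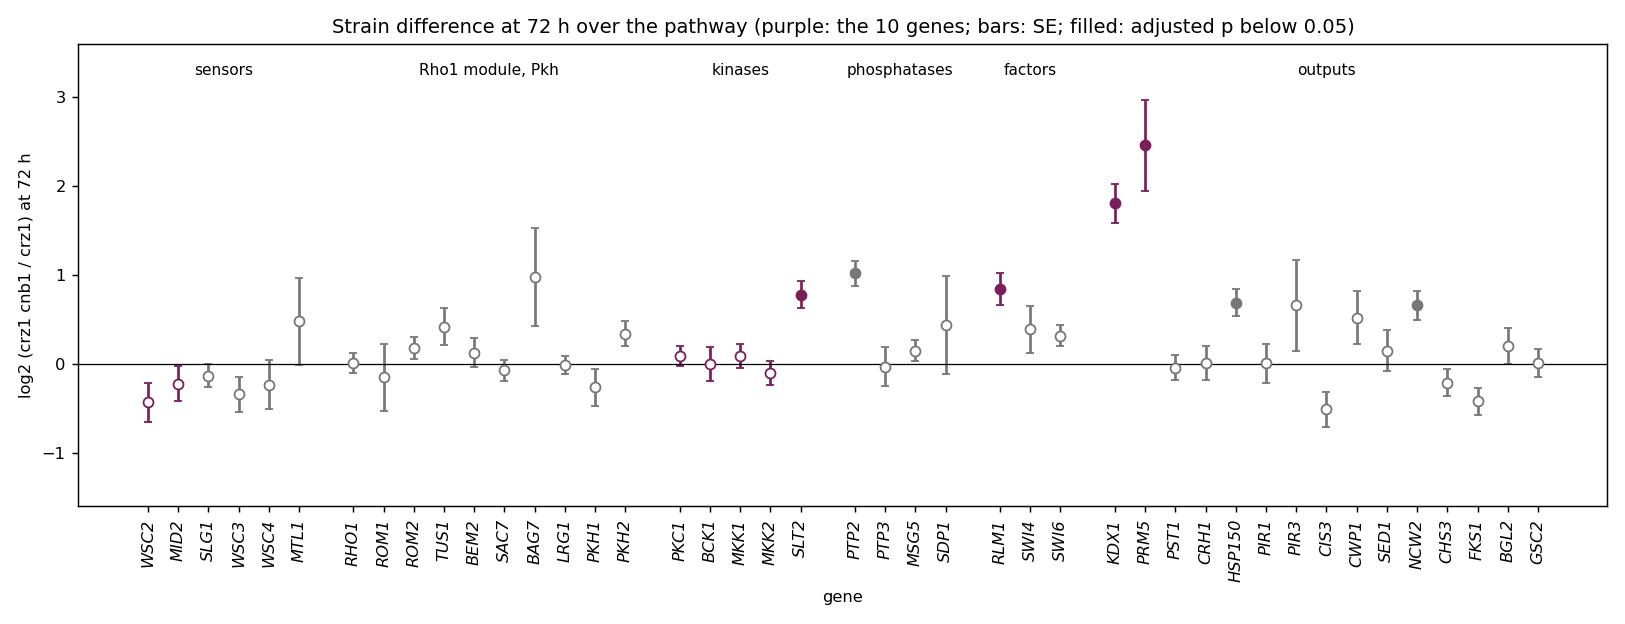
Log2 ratio of crz1 cnb1 to crz1 at 72 h for the 10 genes (purple) and the other listed genes of the pathway (grey), by role, with bars of 1 SE; filled points have an adjusted p below 0.05. The filled points are SLT2 (0.78), PTP2 (1.02), RLM1 (0.84), KDX1 (1.81), PRM5 (2.46), HSP150 (0.69) and NCW2 (0.66).

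Of 13 cell wall genes known to respond through Slt2 and Rlm1, 2 were higher in crz1 cnb1 at 72 h and none was lower. Of all genes 3.35% were higher and 2.81% lower, and the median log2 difference was 0.01 over the list and 0.01 over all genes. The 2 were HSP150, a wall mannoprotein (0.69 ± 0.15, adjusted p = 0.00789), and NCW2, another wall protein (0.66 ± 0.16, adjusted p = 0.0177), whose call was lost without replicate 1 of crz1 at 72 h (adjusted p = 0.103) or replicate 1 or 2 of crz1 cnb1 (adjusted p = 0.0658 and 0.0828). At 48 h 1 of the 13 was called between the strains, as lower in crz1 cnb1, beside 3.05% of all genes, with a list median of -0.13. At 12 h 1 was called, as higher, beside 1.64% of all genes. This was CWP1, a wall mannoprotein, with a log2 difference of 2.53 ± 0.32 (adjusted p = 0.000216). It was at 76.2, 80.7 and 102.9 CPM in crz1 and at 353.9, 528.4 and 621.4 CPM in crz1 cnb1. At 0 h it was at 517.1, 448.3 and 484.7 CPM in crz1 and at 532.8, 510.2 and 567.3 CPM in crz1 cnb1. Over the 6 fits without 1 library, the log2 change of CWP1 from 0 h to 12 h ran from -2.63 to -2.4 in crz1. In crz1 cnb1 it ran from -0.3 to 0.1. The joint test of CWP1 passed (adjusted p = 0.0309), in 11 of the 24 fits without 1 library. At 72 h its strain difference was 0.52 ± 0.30 (adjusted p = 0.334). From 0 h to 72 h, 8 of the 13 rose in crz1 and 7 in crz1 cnb1, beside 22.6% and 20.1% of all genes, among them HSP150 (1.16 ± 0.15 and 1.81 ± 0.15) and the glucan synthase subunit gene GSC2 (1.03 ± 0.16 and 1.13 ± 0.16), and none fell.

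Of the other 4 sensor genes, none was called between the strains at any time; WSC4 rose in crz1 at 72 h by 1.13 ± 0.28 and fell in crz1 cnb1 at 48 h by 1.61 ± 0.29, and WSC3 rose in crz1 at 12 and 72 h by 0.93 ± 0.21 and 0.54 ± 0.20, the later call lost in 4 of the 6 fits without 1 library. Of 8 genes of Rho1 and its regulators, none was called between the strains. From 0 h to 72 h, 1 rose and 3 fell in crz1, beside 22.6% and 19.8% of all genes. In crz1 cnb1 2 rose and 1 fell, beside 20.1% and 15.7%. RHO1 fell from 0 h at all 3 times in crz1, by 0.58, 0.51 and 0.39, each ± 0.11. In crz1 cnb1 it fell by 0.31 ± 0.11 at 48 h and 0.33 ± 0.11 at 72 h, calls lost in 5 and 2 of the 6 fits without 1 library. ROM1, an exchange factor of Rho1, fell in crz1 at 48 h by 1.38 ± 0.38 (adjusted p = 0.00901; 0.0633 in a fit of only the libraries compared), and its further calls, at 72 h in crz1 and 48 h in crz1 cnb1, were each lost in 5 of 6 such omissions. SAC7, a GTPase-activating protein of Rho1, rose in crz1 at 72 h by 0.37 ± 0.12, a call lost in 4 of 6. The kinase gene PKH1, acting before Pkc1, rose in crz1 at 12 and 72 h by 1.08 ± 0.21 and 0.74 ± 0.21, and in crz1 cnb1 at 72 h by 0.55 ± 0.21, a call lost in 5 of 6 omissions. PKH2, of the same step, was called in no comparison with 0 h. SWI4 and SWI6, which encode the other transcription factor complex downstream of Slt2, were called in none of the 12 comparisons, with differences of 0.39 ± 0.26 and 0.32 ± 0.12 at 72 h (adjusted p = 0.412 and 0.119).

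PRM5 is also a pheromone-responsive gene. Of 10 other listed pheromone-regulated genes, 7 fell in crz1 at 12 h, 6 at 48 h and 6 at 72 h, beside 14.4%, 13.7% and 19.8% of all genes. In crz1 cnb1, where the fall of PRM5 was not called, 7, 6 and 6 of them fell, beside 7.67%, 9.54% and 15.7%. In crz1, PRM4 and PRM7 rose at 12 h, by 0.69 ± 0.20 and 1.07 ± 0.29 (adjusted p = 0.00937 and 0.00804), and PRM7 rose at 72 h by 1.10 ± 0.29 (adjusted p = 0.00512). Without replicate 3 of 12 h both 12 h calls were lost (adjusted p = 0.0612 for PRM4 and 0.0535 for PRM7), and that of PRM4 was lost on the log2(TPM + 1) scale (0.109). None of the list rose in crz1 cnb1 from 0 h. PRM7 was named after its values were seen. FUS1, needed for mating cell fusion, was at 72.6, 51.3 and 50.5 CPM in crz1 at 0 h and at 3.86, 2.51 and 2.21 CPM at 72 h. In crz1 cnb1 it was at 79.7, 52.6 and 38.3 CPM at 0 h and at 7.15, 8.88 and 3.43 CPM at 72 h. It fell by 4.35 ± 0.39 in crz1 and by 3.13 ± 0.36 in crz1 cnb1, and the strain difference at 72 h was 1.19 ± 0.38 (adjusted p = 0.0709). PRM9 was higher in crz1 cnb1 at 12, 48 and 72 h by 0.85 ± 0.16, 0.91 ± 0.16 and 0.98 ± 0.16 (adjusted p = 0.00559, 0.00253 and 0.0011), with the 12 h and 48 h calls lost in a fit of only the libraries compared (0.098 and 0.104). PRM4 had a strain difference of -0.98 ± 0.20 at 12 h (adjusted p = 0.0084), a call lost without replicate 2 or 3 of crz1 or 3 of crz1 cnb1 (up to 0.0816). PRM7 was lower in crz1 cnb1 at 48 h, with log2 differences from -1.92 to -1.52 over the 6 fits without 1 library (adjusted p from 0.00103 to 0.0211). The MATa markers, 6 of 6 of them, fell at 72 h in both strains, beside 19.8% and 15.7% of all genes. In crz1 BAR1 fell by 1.58 ± 0.19 and STE6 by 0.48 ± 0.15. Between the strains 2 of the 6 were called at 12 h, both higher in crz1 cnb1, beside 1.64% of all genes. Of the 4 MATalpha markers, 3 fell and 1 rose in crz1 at 72 h, beside 19.8% and 22.6% of all genes. In crz1 cnb1 2 fell and 0 rose, beside 15.7% and 20.1%. From 0 h to 72 h the mean of STE3 went from 9.52 to 2.28 CPM in crz1 and from 7.84 to 0.639 CPM in crz1 cnb1. That of SAG1 went from 20.2 to 38.0 CPM and from 24.5 to 31.5 CPM. Group means of MF(ALPHA)1 and MF(ALPHA)2 were at most 0.986 and 0.77 CPM. None of the 4 but MF(ALPHA)2 reached 0 counts in any library. The part of the fall in pheromone and mating-type genes in the values of PRM5 was not tested.

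Over the 24 libraries, the genes whose log2 CPM was most like that of KDX1 were CIS1 (Pearson's r 0.88), PTP2 (0.87), IFM1 (0.86) and MAM33 (0.81). For PRM5 they were SER3 (0.90), AFR1 (0.89), MSF1 (0.88) and VPS36 (0.87), with SLT2 in place 7 (0.86). SLT2 was most like SCO2 (0.91), MIA40 (0.91), MSF1 (0.90) and MST1 (0.88), and RLM1 was most like SCD5 (0.95), AIM3 (0.94), PHD1 (0.93) and MRP4 (0.92). RLM1 had r of 0.49 with KDX1, 0.11 with SLT2 and -0.14 with PRM5. These correlations describe the same 24 libraries, which share groups and scaling, and carry no p.

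In R64 coordinates, WSC2 (YNL283C) lies at XIV 105184 to 106695, MID2 (YLR332W) at XII 790676 to 791806, PKC1 (YBL105C) at II 14241 to 17696, BCK1 (YJL095W) at X 247255 to 251691 and MKK1 (YOR231W) at XV 772601 to 774127. MKK2 (YPL140C) lies at XVI 287514 to 289034, RLM1 (YPL089C) on the same chromosome at 379120 to 381150, SLT2 (YHR030C) at VIII 168890 to 170344, KDX1 (YKL161C) at XI 149386 to 150687 and PRM5 (YIL117C) at IX 140613 to 141569. MID2 overlaps JIP3 over 371 bases, and JIP3 held 0 to 3 counts; whether counting used strand is not given in the sources used here. No other member overlaps an annotated gene. The longest identical stretch between paralogues was 17 bases for MKK1 and MKK2, 11 for SLT2 and KDX1, 14 for WSC2 and WSC3 and 15 for MID2 and MTL1.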

How the data were processed

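Poly(A)-selected libraries of 24 samples in 8 groups were sequenced. The authors deposited raw read counts per gene, made with featureCounts on build R64, per the submitters' processing notes, which also name DESeq2, and a second deposited table of TPM; the aligner, its version and the use of strand are not stated in the sources used. From the counts, edgeR 4.0.16 (R 4.3.3) was run with TMM scaling and filterByExpr by group. A robust quasi-likelihood fit of all 24 libraries had 1 coefficient per group, with Benjamini-Hochberg adjustment over 6089 genes. CPM are TMM-scaled, apart from the sums of mating-type markers. The fit was tested on simulated data. Alternatives were RLE size factors, no filter, a replicate block, only the libraries compared, DESeq2 1.42.0, limma 3.58.1 on log2(TPM + 1) and log2(TPM + 0.1), no libraries apart from their groups, and each library left out. All settings were listed with earlier results of these data known, as were the members, gene lists and motifs.

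Levels per gene length use the deposited TPM. WSC1 is listed as SLG1. Text names all members, and from each list the 2 genes with the smallest joint p and the 2 called in most comparisons, with PRM5, KDX1, RLM1 and SLT2 given their 4 most correlated genes. Same-numbered libraries deviated together (lowest correlation of deviations from group means above 0.1) between 12 h and 0 h in crz1 (0.114), and between strains at 0 h (0.56) and 12 h (0.169), so the block is given beside those results. Replicate pairs differed by 9.83 to 497 chi-square per degree of freedom, so none was a duplicate. Promoters are the 500 bases before each start codon in R64.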

Additional observations from a re-analysis of the deposited data

Results flagged for a closer look

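Among the members and all listed genes, in 4 the change from 0 h in CaCl2 differed between the strains. The test was the joint test of the 3 strain-by-time terms (edgeR quasi-likelihood, adjusted over 6089 genes). It called 22 genes, or 0.361% of all tested. KDX1 had an adjusted p of 0.0321: its change exceeded that of crz1 by 1.59 ± 0.30 on the log2 scale at 72 h, with all 3 crz1 cnb1 libraries above all 3 of crz1. PTP2 had an adjusted p of 0.0472 and a difference in change of 1.03 ± 0.19 at 72 h. CWP1 had an adjusted p of 0.0309, with a difference in change of 2.38 ± 0.44 at 12 h and 0.37 ± 0.42 at 72 h. PRM9 had an adjusted p of 0.0472, with differences of 0.95 ± 0.22, 1.01 ± 0.22 and 1.08 ± 0.22 at 12, 48 and 72 h. Leaving out 1 library ended the call in 14 of 24 fits for KDX1, in 20 for PTP2, in 13 for CWP1 and in 17 for PRM9.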

How the results depend on the processing

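Under the 8 other settings, 304 values of members that were called stayed called and 39 did not, and 44 uncalled values became called; without 1 library the figures were 214, 62 and 16. No called value changed direction. The cause of each change was not tested. In a fit of only the libraries compared, 3 members and 629 genes were called in crz1 at 48 h against 0 h, 8 members in crz1 cnb1 at 48 h against 0 h, 61 genes from 12 to 72 h in crz1, and between strains 0 members and 12 genes at 12 h, 1 member and 6 genes at 48 h, and 909 genes at 72 h. With the replicate block, 8 members were called in crz1 cnb1 at 48 h against 0 h. From 12 to 72 h it called 280 and 522 genes in crz1 and crz1 cnb1. Between strains it called 457, 714 and 587 genes at 12, 48 and 72 h, and in the joint test 67. Outside the 3 paired comparisons the lowest correlation of same-numbered libraries was below 0.1, though single pairs reached more. Between strains at 48 h the correlations were 0.662, 0.508 and 0.0954 for replicates 1, 2 and 3. In crz1 cnb1 at 12 h against 0 h they were 0.471, 0.0391 and 0.496. Whether same-numbered samples there share more than a number is not given. Among members the block also passed PRM5 between strains at 48 h (adjusted p = 0.0238), MKK1 in crz1 at 48 h (0.0379) and WSC2, MKK1 and PRM5 in crz1 cnb1 at 48 h against 0 h (0.0323, 0.0287 and 0.046), and beside those given in the report it changed no other member's call. Every library correlated best with its own number in 2 of the 12 comparisons, between strains at 0 and 12 h. DESeq2 called 273 and 532 genes from 12 to 72 h in crz1 (with 1 member) and crz1 cnb1, 425 genes and 2 members between strains at 12 h, 589 genes at 48 h, and 127 genes and 2 members in the joint test. limma on log2(TPM + 1) called 75 genes from 12 to 72 h in crz1 and 146 and 520 between strains at 12 and 48 h. On log2(TPM + 0.1) it called 1 and 3 members in crz1 cnb1 at 12 and 48 h against 0 h, 72 genes from 12 to 72 h in crz1, and 128 and 499 between strains at 12 and 48 h. Without the 3 libraries apart, 2120 genes were called in crz1 cnb1 at 12 h against 0 h, 482 (with 1 member) and 822 from 12 to 72 h in crz1 and crz1 cnb1, 603 genes and 3 members, 2116 genes and 5 members, and 728 genes between strains at 12, 48 and 72 h, and 386 genes and 2 members in the joint test.

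Against 0 h, leaving out 1 library gave 3 to 7 members and 1485 to 1891 genes in crz1 at 12 h. At 48 h it gave 3 to 7 members and 1414 to 2730 genes there. In crz1 cnb1 it gave 1 to 5 members and 668 to 1370 genes at 12 h, and 2 to 7 members and 898 to 1498 genes at 48 h. From 12 to 72 h it gave 26 to 152 genes in crz1 and 26 to 418 in crz1 cnb1. Between strains it gave 0 to 3 members and 34 to 475 genes at 12 h, 1 to 4 members and 81 to 1886 genes at 48 h, and 141 to 488 genes at 72 h, and in the joint test 0 to 2 members and 0 to 503 genes, the highest without replicate 1 of crz1 at 48 h. With 3 libraries a group the standard error of PRM5 was 0.47 to 0.51 on the log2 scale, against 0.11 for PKC1.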
